A study of Mus musculus with 6 samples.

Results

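The MYC and MAX network is a set of basic helix-loop-helix leucine zipper proteins that share the small partner MAX. Of its 10 genes examined here, 9 were found in the deposited table under the symbols Myc, Mycn, Max, Mxd1, Mxd3, Mxd4, Mxi1, Mnt and Mga, and Mycl1 was found under its current symbol Mycl, for which RefSeq lists Mycl1 as a synonym. They are 10 of 23999 genes in the table. MYC, MYCN and MYCL dimerize with MAX on the DNA sequence CACGTG, the E-box, and activate genes of growth and ribosome production. The MXD proteins, including MXI1, and MNT compete for MAX and recruit the SIN3 and histone deacetylase corepressor to the same sites. MGA also binds MAX, within a Polycomb complex that is known to hold germ cell genes silent in embryonic stem cells. In these cells MYC and MYCN are known to act redundantly in self-renewal and proliferation.

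The samples were mouse embryonic stem cells, all with one genotype: a floxed element named -5 and an exogenous mouse Nanog with a V5 tag (mNanogV5). They received ethanol vehicle (n = 3) or 4-hydroxytamoxifen (4OHT, n = 3) for 6 days, and polyadenylated RNA was sequenced. By its title the series is about an enhancer of Nanog, and the comparison asks what happens to RNA levels when cells with this floxed element receive 4OHT. This ligand is commonly used to activate oestrogen receptor fusions of Cre. The labels name neither the Cre, the strain nor a clone, and no 4OHT-treated cells without the floxed element are among these samples, so 4OHT itself and a loss of the element cannot be told apart. No label says that the 3 samples of a group came from separate cultures, so p-values measure only the spread between these samples, which may be technical.

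Read counts per library ran from 515388 in 4OHT replicate 2 to 55194644 in 4OHT replicate 1, and the other 4 libraries held at least 20030423. Levels are CPM, read counts scaled to a common library total, after TMM scaling. In 4OHT replicate 2 a level of 3 reads is 5.73 CPM, against at most 0.149 CPM elsewhere, so that library says little about low genes. Nanog stood at 631, 660 and 641 CPM in vehicle replicates 1 to 3 and at 177, 172 and 194 CPM in 4OHT replicates 1 to 3. The table has no separate row for the tagged copy, whose reads may add to these values. All 9 pluripotent stem cell markers were tested, and their summed level was 6301 to 6469 CPM in vehicle and 6229 to 6594 CPM in 4OHT cells. Of them 2 were higher (Sall4 and Sox2), 1 was lower (Pou5f1) and 6 did not pass. The counts of this and the next marker lists stand beside 11.9% of all tested genes that were higher and 10.5% that were lower in edgeR. Of the pluripotent markers 2 were lower with the replicate block and 1 was higher without vehicle replicate 3. In addition, 1 was higher and none lower without vehicle replicate 2, and 1 was higher and 2 lower without 4OHT replicate 3. Of 8 fibroblast markers 4 were too low to be tested, Postn had no read, and the sum was 20.2 to 20.9 CPM in vehicle and 11.1 to 15.3 CPM in 4OHT cells. Of the 4 tested, Thy1 fell (log2 fold change -1.36), from a mean of 15.9 to 6.67 CPM, and it made up most of the vehicle sum. The other 3 did not pass and had positive log2 fold changes (Col1a1 0.10, Twist1 0.37 and Col1a2 0.90), so the lower sum follows Thy1 alone. Without 4OHT replicate 1, 1 of 5 tested was higher. All 9 endoderm markers rose in edgeR, their sum going from 147 to 161 CPM to 252 to 301 CPM. DESeq2 with all libraries called 8 of the 9, and limma-voom with quantile normalization called 7. Most of the vehicle sum came from Lama1 and Col4a1, with means of 94.3 and 52.4 CPM, so it says little about the low markers. All 8 markers of the Zscan4-positive, cleavage-stage-like state rose too, from sums of 8.64 to 9.41 CPM to 22.9 to 26.8 CPM; DESeq2 called 4 of the 7 it tested with all libraries and 8 of 8 without 4OHT replicate 2. In bulk RNA a change in the share of such cells and a change in RNA per cell cannot be told apart. The part of these cells in the results below was not tested.

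The DNA sequence that links these genes is the E-box, so promoters were read from the RefSeq promoter table (assembly GRCm38.p6), in windows of 300 bases of which 250 lie before the start of the gene. No window was listed for Myc, so its promoter was not searched. The windows of the other 9 members were in the table. Of these, 3 (33.3%) held CACGTG, those of Mnt, Mxd4 and Max, against 11.8% of the 10646 tested genes with a window and 7.15% of all 32851 windows. In the Max window the motif spans the start of the gene. CACGTG reads the same on both strands. The second sequence searched was TTCCCGC on either strand, a core of E2F sites, because E2F6 is another DNA-binding subunit of the Polycomb complex of MGA. It was in 1 member window, that of Mxd3, and in 9.97% of tested genes with a window. The 250 bases before the start are given for the member with the largest fold change (Mycl), a member with an E-box (Mnt), a MYC target that fell (Ldha), and the 2 members of the MGA and MAX target list with the largest rise and the only fall that passed the test (Stra8 and Ddx4). Each is written 5′ to 3′ in the direction of the gene, with the E-box and the E2F core (read on either strand) in capitals.
Mycl: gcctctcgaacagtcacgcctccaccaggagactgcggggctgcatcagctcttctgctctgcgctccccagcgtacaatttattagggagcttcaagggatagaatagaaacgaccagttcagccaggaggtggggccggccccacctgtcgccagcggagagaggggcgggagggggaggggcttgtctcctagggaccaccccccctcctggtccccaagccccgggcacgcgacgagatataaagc
Mnt: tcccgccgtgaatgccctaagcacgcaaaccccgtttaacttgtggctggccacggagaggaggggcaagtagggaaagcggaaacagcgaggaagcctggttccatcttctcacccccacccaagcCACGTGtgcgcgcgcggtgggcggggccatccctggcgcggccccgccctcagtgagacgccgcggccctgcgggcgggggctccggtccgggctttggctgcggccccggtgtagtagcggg
Ldha: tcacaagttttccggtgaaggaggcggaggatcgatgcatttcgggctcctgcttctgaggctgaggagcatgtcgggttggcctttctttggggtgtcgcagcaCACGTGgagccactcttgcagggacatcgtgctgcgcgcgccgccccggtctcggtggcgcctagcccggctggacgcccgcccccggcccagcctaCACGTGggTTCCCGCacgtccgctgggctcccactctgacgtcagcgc
Stra8: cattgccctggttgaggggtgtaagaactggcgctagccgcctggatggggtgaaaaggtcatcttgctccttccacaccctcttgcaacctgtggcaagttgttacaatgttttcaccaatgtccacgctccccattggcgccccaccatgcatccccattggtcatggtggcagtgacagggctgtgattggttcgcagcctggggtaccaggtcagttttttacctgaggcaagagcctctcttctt
Ddx4: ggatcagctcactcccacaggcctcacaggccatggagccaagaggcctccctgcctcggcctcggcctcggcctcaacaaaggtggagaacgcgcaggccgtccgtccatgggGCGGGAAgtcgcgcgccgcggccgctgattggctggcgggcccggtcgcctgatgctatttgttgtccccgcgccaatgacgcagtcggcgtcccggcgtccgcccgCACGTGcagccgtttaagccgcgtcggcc
The Mycl stretch is chr4:122995681-122995930 on the plus strand, that of Mnt is chr11:74830674-74830923 on the plus strand, and that of Ldha, the first of 2 windows listed for this gene, is chr7:46845554-46845803 on the plus strand. That of Stra8 is chr6:34920698-34920947 on the plus strand, and that of Ddx4 is chr13:112652311-112652560 on the minus strand. Neither motif was in the Mycl or Stra8 window. Ldha held 2 E-boxes and 1 E2F core, and Ddx4 held 1 of each. A match describes the letters and not binding.

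Mycl and Myc rose after 4OHT, and the other 8 members did not pass the test. All 10 members were deep enough to be tested. Those that passed were 2 of 10 (20%, both higher), while 22.4% of the 14458 tested genes passed, 11.9% higher and 10.5% lower. The share of members that passed was therefore near the background. No member was lower, with edgeR at an adjusted or an unadjusted p under 0.05 or with DESeq2 at either. The median log2 fold change (4OHT over vehicle) was 0.04 over the 10 members and -0.0026 over all tested genes. With the replicate number as a block 4 members were higher, Mycl, Myc, Mycn and Mnt, beside 28.2% of all tested genes (14.6% higher). DESeq2 called 1 member, Mycl, with 6.87% of its tested genes called and 4.03% higher.

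**Figure D1:**
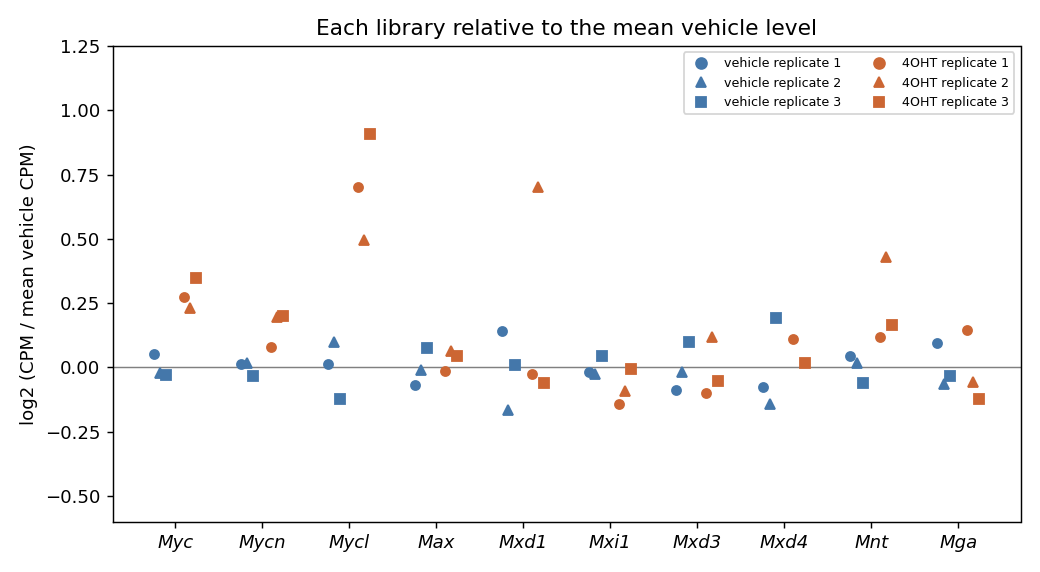
Log2 ratio of the CPM of each library to the mean vehicle CPM of the same gene, for the 10 members (blue, 3 vehicle libraries; orange, 3 4OHT libraries; symbols mark replicate numbers). The 3 4OHT points lie above the 3 vehicle points for Myc, Mycn, Mycl and Mnt; Mxd4 had no read in 4OHT replicate 2, which is not drawn.

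Among the MYC family genes, Mycl, which encodes L-MYC, had the largest fold change of the network. It stood at 12.3, 13.0 and 11.2 CPM in vehicle replicates 1 to 3 and at 19.8, 17.2 and 22.9 CPM in 4OHT replicates 1 to 3. Every 4OHT library lay above every vehicle library. The 17.2 CPM of 4OHT replicate 2 rest on 9 reads (95% Poisson interval 7.86 to 32.6 CPM, counting error only). The means were 12.2 ± 0.931 and 19.9 ± 2.84 CPM (SD, n = 3 each), and the fitted change was 1.74-fold (log2 fold change 0.80 with a standard error of 0.09 and a 95% interval of 0.60 to 0.99; edgeR adjusted p = 2.16e-06). A fold change at least as large in either direction was found for 5.59% of tested genes. The log2 fold change ranged from 0.70 to 0.90 over 13 other settings and passed in each of them, and it was 0.80 without 4OHT replicate 2.

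Myc, which encodes c-MYC, rose by less. Its levels were 54.0, 51.3 and 51.0 CPM in vehicle replicates 1 to 3 and 63.0, 61.1 and 66.3 CPM in 4OHT replicates 1 to 3. The 61.1 CPM of 4OHT replicate 2 rest on 32 reads. Their 95% Poisson interval of 41.8 to 86.3 CPM (counting error only) covers the vehicle levels. The groups did not overlap, which was so for 31.3% of all tested genes and for 4 of the 10 members (Myc, Mycn, Mycl and Mnt, each higher in 4OHT, as were 14.7% of tested genes). The rise was 1.23-fold, from 52.1 ± 1.66 to 63.5 ± 2.62 CPM (SD, n = 3 each; log2 fold change 0.30 with an SE of 0.06 and a 95% interval from 0.17 to 0.44; edgeR adjusted p = 0.00125). It was ordinary in size, since 24.4% of tested genes had a fold change at least as large. DESeq2 did not call it with all 6 libraries (adjusted p = 0.061) and did without 4OHT replicate 2 (adjusted p = 0.00151).

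Mycn, which encodes N-MYC, was the most abundant of the 10 genes per length and did not pass. Its 4OHT levels of 234, 254 and 255 CPM in replicates 1 to 3 lay above the vehicle levels of 224, 224 and 217 CPM. All 3 4OHT libraries were higher, that of replicate 1 by the least. The 254 CPM of 4OHT replicate 2 rest on 133 reads. Their 95% Poisson interval of 213 to 301 CPM (counting error only) covers the vehicle levels. The log2 fold change of Mycn was 0.15, with an SE of 0.06 and a 95% interval from 0.02 to 0.27 (edgeR adjusted p = 0.0814). It passed with the replicate block (0.15, edgeR adjusted p = 0.0137) and without 4OHT replicate 1 (0.20, edgeR adjusted p = 0.00781), and over the 13 other settings the adjusted p ran from 0.00781 to 0.32. The further paralogs Bmyc and Mycs were looked up after their values were seen. Bmyc stood at 14.1 ± 1.89 CPM in vehicle and 16.2 ± 4.31 CPM in 4OHT cells (SD, n = 3 each). Its log2 fold change was -0.03 (edgeR adjusted p = 0.894). Mycs had 2 reads in all 6 libraries together. No other gene matched 50% or more of the transcript of any member at 95% identity.

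Levels of different genes can be compared only per length, here as CPM per kilobase of annotated exon (GENCODE vM21). On this scale Mycn led with 67.3 ± 1.27 in vehicle and 75.2 ± 3.47 in 4OHT cells (SD, n = 3 each). Max, the shared partner, followed with 30.0 ± 1.55 and 30.6 ± 0.848. Myc at 19.2 ± 0.611 and Mga at 18.5 ± 1.10 were neighbours whose vehicle ranges overlapped, and their 4OHT ranges (23.4 ± 0.963 and 18.4 ± 1.82) did not. Myc lay above Mga within each of the 6 libraries. Mnt (11.3 ± 0.414) and Mxd3 (10.4 ± 0.692) also overlapped in vehicle. Mxi1 (6.56 ± 0.171) and Mycl (3.02 ± 0.231) came next. Mxd1 (0.332 ± 0.035) and Mxd4 (0.239 ± 0.030) were far below all others. With the length of the longest coding transcript in place of the exon union, Mxd3 (18.5 ± 1.24) ranked above Mnt (11.4 ± 0.418) and Mxd4 (0.524 ± 0.066) beside Mxd1 (0.503 ± 0.053) in vehicle, so these 2 orders depend on the gene model.

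**Figure D2:**
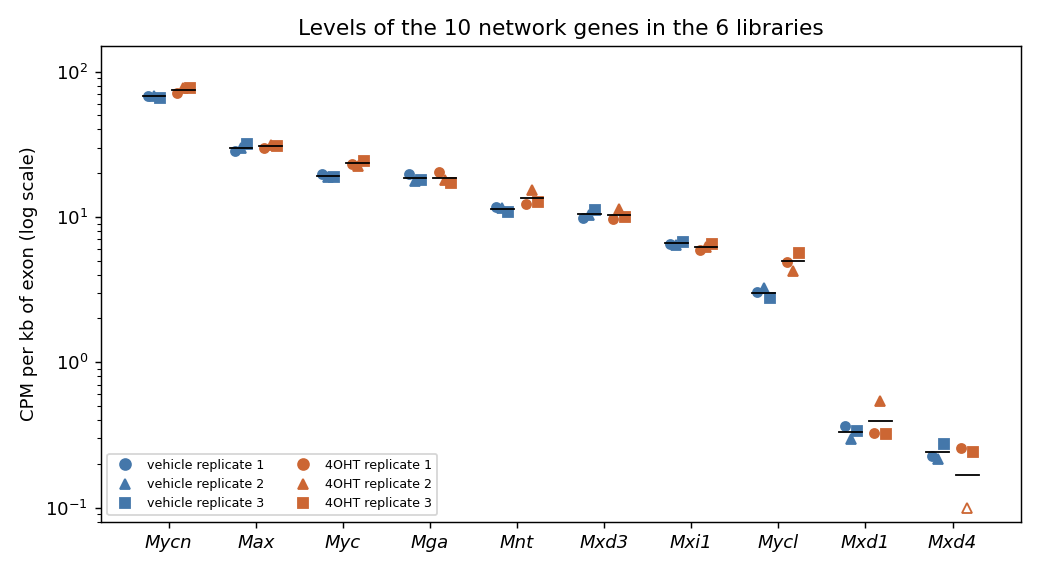
CPM per kilobase of exon (log scale) of the 10 members in each of the 6 libraries, ordered by mean vehicle level; black lines are group means and symbols mark replicate numbers. Mycn leads in both groups and Mxd1 and Mxd4 lie below 1; the open symbol for Mxd4 marks 4OHT replicate 2, which had no read and is drawn at the lower edge.

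Mycn made up most of the RNA of the MYC family genes Mycn, Myc and Mycl in both groups. Bmyc and Mycs were left out of these shares and sums. Per length, Mycn gave 74.8%, 75.5% and 75.4% of the family's summed level in vehicle replicates 1 to 3 and 71.7%, 74.2% and 72.0% in 4OHT replicates 1 to 3. The share of Mycl was 3.35%, 3.58% and 3.17% in vehicle and 4.94%, 4.10% and 5.27% in 4OHT cells. That of Myc was 21.9%, 20.9% and 21.5%, and 23.4%, 21.7% and 22.7%. Of the 3 genes, Myc alone had shares that overlapped between groups. The summed level of the 3 genes was 89.5 ± 1.87 CPM per kilobase in vehicle and 103 ± 4.04 in 4OHT cells (SD, n = 3 each). The summed level of the MXD genes and Mnt was 28.8 ± 0.456 and 30.5 ± 2.45, with overlap. The log2 ratio of the family to these antagonists was 1.67, 1.65 and 1.57 in vehicle replicates 1 to 3 and 1.80, 1.64 and 1.85 in 4OHT replicates 1 to 3, so 4OHT replicate 2 lay within the vehicle range. These sums were not tested, because the members were chosen with results of these data known.

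Max, the shared partner, stood at 103, 107 and 114 CPM in vehicle replicates 1 to 3 and at 107, 113 and 111 CPM in 4OHT replicates 1 to 3. The 4OHT libraries lay inside the vehicle range. The log2 fold change was 0.02 with a 95% interval of -0.11 to 0.15 (edgeR adjusted p = 0.873).

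The antagonists of the MXD group did not pass either. Mxd3, an MXD protein gene of dividing cells, stood at 23.2, 24.3 and 26.4 CPM in vehicle and 23.0, 26.7 and 23.7 CPM in 4OHT cells (log2 fold change -0.07, 95% interval -0.23 to 0.10). Mxi1, also called MXD2, stood at 44.2, 44.0 and 46.1 CPM in vehicle and 40.5, 42.0 and 44.6 CPM in 4OHT cells (-0.08, 95% interval -0.22 to 0.06). Both genes overlapped between groups, and both kept a negative sign in all 13 other settings without passing. Mxd1 and Mxd4, whose proteins are known mainly from differentiating cells, were near the limit of detection of the shallow library. Mxd1 stood at 2.59, 2.09 and 2.36 CPM in vehicle and at 2.30, 3.82 and 2.25 CPM in 4OHT cells, the 3.82 resting on 2 reads (log2 fold change -0.06, 95% interval -0.41 to 0.28). Mxd4 stood at 1.93, 1.84 and 2.32 CPM in vehicle and at 2.19 and 2.06 CPM in 4OHT replicates 1 and 3. It had no read in 4OHT replicate 2, where the 95% Poisson interval reaches up to 7.04 CPM. Its log2 fold change was 0.06 (95% interval -0.32 to 0.45). Changes of up to the size of these wide intervals were not detectable for the last 2 genes. Opposite-strand genes overlap 4.43% of the exon bases of Mxd3 (Prelid1), 6.06% of those of Mxd4 (Gm42846) and 2.84% of those of Mxi1 (Gm10197). The sources used here do not say whether the authors counted by strand.

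Mnt, the broadly expressed antagonist, stood at 54.0, 53.0 and 50.3 CPM in vehicle replicates 1 to 3 and at 56.9, 70.6 and 58.7 CPM in 4OHT replicates 1 to 3. Every 4OHT library was above every vehicle library, and the highest value belongs to the shallow 4OHT replicate 2, where it rests on 37 reads (95% Poisson interval 49.7 to 97.4 CPM). Its log2 fold change of 0.15 had an SE of 0.07 and a 95% interval from 0.02 to 0.29 (edgeR adjusted p = 0.105), and 0.16 with the replicate block (edgeR adjusted p = 0.04). The adjusted p ranged from 0.04 to 0.612 over the 13 other settings.

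Mga, the largest member, stood at 303, 271 and 277 CPM in vehicle replicates 1 to 3 and at 314, 273 and 261 CPM in 4OHT replicates 1 to 3. Replicate 1 was the highest of each group and the groups overlapped. The log2 fold change was 0.01 (95% interval -0.14 to 0.16, edgeR adjusted p = 0.963). It was -0.11 without 4OHT replicate 1 and 0.11 without 4OHT replicate 3, neither past the test. Of the 271 well expressed genes with a coding transcript over 8 kilobases, 63.5% had replicate 1 highest in both groups, and the part of this in the values of Mga was not tested.

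**Figure D3:**
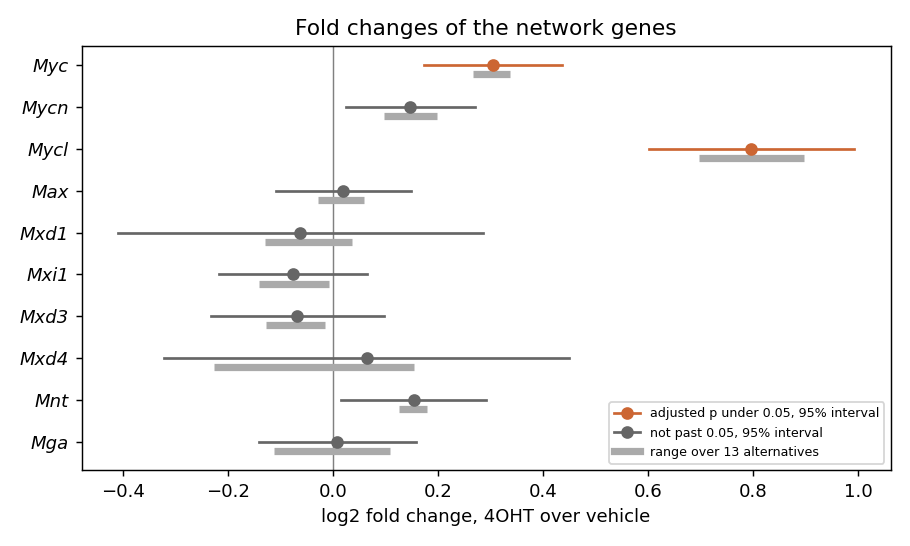
Log2 fold change of each member, 4OHT over vehicle, with its 95% interval from edgeR (points and thin lines, n = 3 each); grey bars span the values over 13 other settings. The intervals of Mycl (0.60 to 0.99) and Myc (0.17 to 0.44) are the ones in orange, for adjusted p under 0.05.

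The related MLX branch, in which the glucose-responsive MondoA (Mlxip) and ChREBP (Mlxipl) pair with MLX, gave no call. None of its 3 genes was higher or lower in edgeR at an adjusted or an unadjusted p under 0.05, and DESeq2 called none. The edgeR shares over all tested genes at an adjusted p under 0.05 were 11.9% higher and 10.5% lower. Mlxip had a log2 fold change of -0.09 (edgeR adjusted p = 0.344), Mlx of -0.04 and Mlxipl of 0.07.

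Among 14 tested coactivators of MYC, 2 rose, 1 fell and 11 did not pass (median log2 fold change 0.0087, against -0.0026 for all tested genes). These counts stand beside 11.9% of all tested genes that were higher and 10.5% that were lower. Trrap, the scaffold of histone acetyltransferase complexes that binds MYC, rose from 222 ± 7.74 to 269 ± 11.6 CPM (log2 fold change 0.30 with an SE of 0.06; edgeR adjusted p = 0.000776). Ruvbl1, an ATPase of the TIP60 and INO80 complexes, fell from 68.7 ± 2.50 to 46.4 ± 7.49 CPM (-0.46 with an SE of 0.07; edgeR adjusted p = 4.76e-05). Bptf, a nucleosome remodeller subunit, had a log2 fold change of 0.20 (edgeR adjusted p = 0.0547). The count of rises was 4 with the replicate block and without 4OHT replicate 3, and 1 without vehicle replicate 2 or 3. The count of falls was 2 without 4OHT replicate 1.

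The corepressor side gave 2 rises, no fall and 11 genes that did not pass among 13 tested SIN3 and NCOR genes (median log2 fold change 0.09). There was no fall at an unadjusted p under 0.05 in edgeR or DESeq2 either. Over all tested genes 11.9% were higher and 10.5% lower. Sap30, a SIN3 subunit, went from 87.3 ± 1.66 to 99.4 ± 13.9 CPM (0.26, edgeR adjusted p = 0.00861), and its groups overlapped. Rbbp7 and Hdac2 did not pass (0.16 and 0.14). The count of rises was 5 with the replicate block and 4 without 4OHT replicate 1, where 1 fall was also called. It was 1 without vehicle replicate 2, vehicle replicate 3 or 4OHT replicate 2.

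Of 12 tested genes of MYC protein turnover, 2 rose, 1 fell and 9 did not pass (median log2 fold change 0.01). These counts stand beside 11.9% of all tested genes that were higher and 10.5% that were lower. Usp28, a deubiquitinase known to stabilize MYC, rose 1.61-fold from 104, 102 and 104 CPM to 174, 129.8 and 167 CPM (log2 fold change 0.68 with an SE of 0.07; edgeR adjusted p = 1.51e-07). Ppp2r5a, the phosphatase subunit known to promote MYC degradation, fell from 233, 236 and 236 CPM to 149.6, 153 and 165 CPM (-0.58 with an SE of 0.06; edgeR adjusted p = 4.12e-07). The 3 libraries of each group were apart for both genes. Trim33, a ubiquitin ligase, rose from 121 ± 4.15 to 142 ± 16.3 CPM (0.28, edgeR adjusted p = 0.00426). Huwe1, a ligase of MYC, did not pass (0.11, edgeR adjusted p = 0.261). These are RNA levels, and MYC protein was not measured here.

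Most of the 40 tested textbook MYC targets did not pass the test. Of them 1 rose, 2 fell and 37 did not pass, with a median log2 fold change of -0.02. Over all tested genes 11.9% were higher and 10.5% lower. The 37 had log2 fold changes between -0.15 and 0.16, and their 95% intervals all lay within -0.29 to 0.28. The summed level of the list was 25127, 25145 and 25819.7 CPM in vehicle replicates 1 to 3 and 25393, 23910.3 and 24047 CPM in 4OHT replicates 1 to 3. Ccnd2, which encodes cyclin D2, fell from 44.8, 47.3 and 52.9 CPM to 15.8, 17.2 and 15.5 CPM (log2 fold change -1.62 with an SE of 0.08; edgeR adjusted p = 2.94e-11). Ldha, the lactate dehydrogenase gene, fell from 1229, 1325 and 1524 CPM to 954, 962 and 1051 CPM (-0.45 with an SE of 0.07; edgeR adjusted p = 0.000108). Polr1b, a subunit of RNA polymerase I, rose from 208 ± 7.61 to 239.9 ± 12.0 CPM (0.22, edgeR adjusted p = 0.0127), and Fbl, the nucleolar methyltransferase fibrillarin, did not pass (0.16, edgeR adjusted p = 0.0646). The single rise was not called without vehicle replicate 1, vehicle replicate 2 or 4OHT replicate 3. The falls numbered 6 without 4OHT replicate 1 and 5 without 4OHT replicate 3, and 7 with the replicate block. An E-box was in the promoter windows of 13 of the 34 targets in the table (38.2%, against 11.8% of tested genes with a window).

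In the Polycomb complex of MGA and MAX, 1 of 12 tested subunits rose and none fell, Mga and Max among them (median log2 fold change 0.0050). No subunit fell at an unadjusted p under 0.05 in edgeR or DESeq2. Over all tested genes 11.9% were higher and 10.5% lower. Rybp, the subunit shared by the variant Polycomb complexes, rose from 39.5, 36.7 and 39.8 CPM to 47.4, 51.6 and 49.3 CPM (0.32 with an SE of 0.07; edgeR adjusted p = 0.00131). Its paralog Yaf2 did not pass (0.23, edgeR adjusted p = 0.12), nor did L3mbtl2 (0.12) and Ring1 (0.19). The count of rises was 2 without 4OHT replicate 1 and with the replicate block, and 0 with DESeq2, where 1 subunit was higher at an unadjusted p under 0.05.

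Of 20 germ cell and meiosis genes known to be silenced by MGA and MAX, 6 rose, 1 fell and 13 did not pass (median log2 fold change 0.11), beside 11.9% of all tested genes that were higher and 10.5% that were lower. Stra8, a gatekeeper of meiosis, rose from 1.61, 1.69 and 1.22 CPM to 12.2, 7.64 and 9.40 CPM (log2 fold change 2.84 with an SE of 0.16; edgeR adjusted p = 6.72e-11). Stk31 rose from 7.56, 7.72 and 8.64 CPM to 11.7, 21.0 and 10.1 CPM (0.49, edgeR adjusted p = 0.00401). Tex11, a meiosis gene of the X chromosome, rose from 10.8 ± 0.799 to 13.4 ± 0.136 CPM (0.34, edgeR adjusted p = 0.0125). Ddx4, the germ cell RNA helicase VASA, fell from 32.4, 33.7 and 36.5 CPM to 27.8, 30.5 and 29.5 CPM (-0.25, edgeR adjusted p = 0.0184). These 4 genes, named for their low adjusted p, did not overlap between groups and did not share a direction. In 4OHT replicate 2, where 3 reads make 5.73 CPM, their levels rest on few reads. The small SD of Tex11 in 4OHT cells does not show this counting error. Over the whole list 8 of 20 genes did not overlap, 5 higher and 3 lower, beside 31.3% of all tested genes. The count of rises was 2 without vehicle replicate 1 and 3 without vehicle replicate 3, where no fall was called. DESeq2 called 1 rise and no fall with all libraries, and 2 rises and 1 fall without 4OHT replicate 2. The E-box was in the windows of 11 of the 19 genes in the promoter table (57.9%) and the E2F core in 6 (31.6%, against 9.97% of tested genes with a window).

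**Figure D4:**
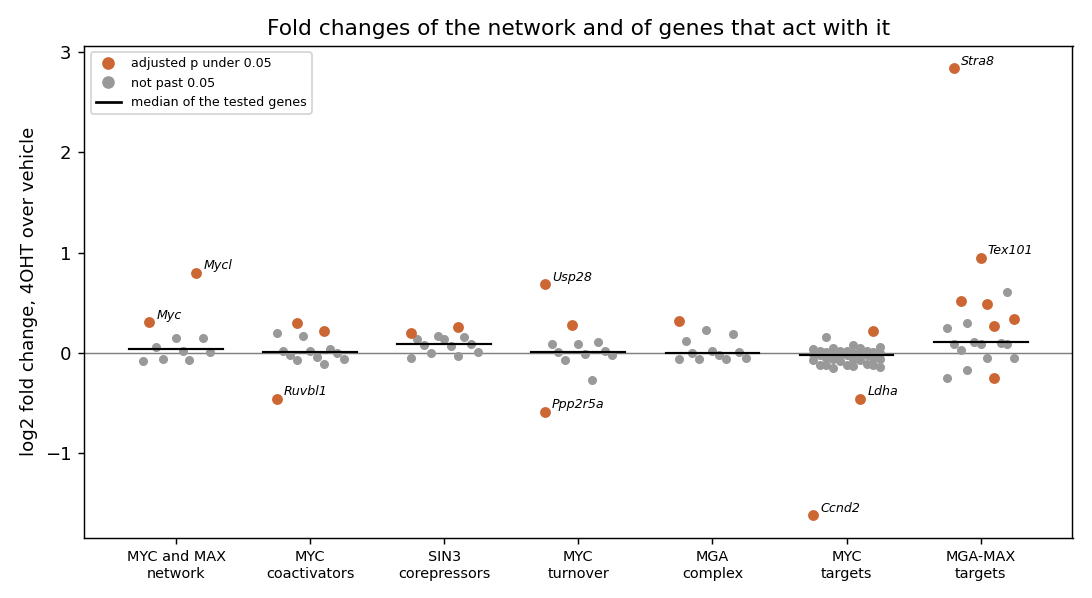
Log2 fold changes (4OHT over vehicle) of the tested genes of the network and of 6 lists around it; orange points passed at an adjusted p under 0.05, grey points did not, and black lines are medians. Most MYC targets lie close to 0, with Ccnd2 (-1.62) and Ldha (-0.45) below, while Stra8 (2.84) stands above the other germ cell genes.

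Among the 5 genes whose profile over the 6 libraries was closest to that of Myc were Fgd1, Trrap, H2afy and Klf9. Likeness was measured as the root-mean-square difference of log2 CPM values centred on each gene's mean, over 3631 other tested genes with a mean log2 CPM of at least 6, and it was 0.026 to 0.03 for these genes. Their log2 fold changes were between 0.27 and 0.31. For Mycn the closest were Sppl3, Fbxo42, Tomm40, Dvl2 and Cherp, with differences of 0.019 to 0.022 and log2 fold changes of 0.12 to 0.17. None of these last 5 passed the test of the treatment. All 6 libraries are shared by the genes compared, and with a single treatment any gene with a like fold change and a low spread comes close.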

How the data were processed

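RNA selected for poly(A) was sequenced in 6 samples of mouse embryonic stem cells with the NEBNext Ultra kit, per the labels' protocols. The labels gave the groups and replicate numbers. The authors deposited whole-number read counts for 23999 gene symbols. Per the submitters' processing notes, the mm9 build was used, and STAR and DESeq are listed as tools. The counting tool, annotation and strand use were not stated. The columns' totals vary widely, as those of raw counts do, so they were treated as unscaled.

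Differences were tested with edgeR 4.0.16 (R 4.3.3). A filterByExpr minimum count of 10 left 14458 genes, TMM factors were 0.979 to 1.02, and 1 quasi-likelihood model of treatment covered the 6 samples. Benjamini-Hochberg adjustment ran over all tested genes with a threshold of 0.05. Log2 fold changes have a prior count of 0.125. Alternatives were DESeq2 1.42.0, limma 3.58.1 voom with quantile normalization, DESeq2 size factors in edgeR, other filters, a replicate block and each library left out. DESeq2 without 4OHT replicate 2 was added after seeing the data. On simulated counts for 4OHT against vehicle (14338 genes after the filter) edgeR recovered 75.8% of genes changed 1.5-fold, 91.4% of those changed 2-fold and 97.1% of those changed 4-fold. These were 62, 70 and 68 genes, far fewer than were called in the data. Smaller changes, such as those of Myc, Mycn and Mnt, were not simulated, so these shares do not give the power for them.

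Same-numbered samples were checked for pairing: over 3632 genes with a mean log2 CPM of at least 6 their deviations from group means correlated at 0.57, 0.15 and 0.39 for numbers 1, 2 and 3. Vehicle number 2 and 4OHT number 3 correlated at 0.45. So 4OHT number 3 correlated more with vehicle number 2 than with vehicle number 3. Deviations from a mean of 3 samples are also tied to each other. These values therefore do not settle whether the numbers pair the samples, and no label says what they mark. The numbers were used as a block in an alternative fit only. Blocked values stand beside members whose call they change. For the lists, blocked counts are given without blocked values of single genes. Overlaps, copies (blastn 2.17.0) and lengths came from GENCODE vM21, and promoters from RefSeq, both on GRCm38. The counts were made on mm9, so the promoter coordinates given here (GRCm38) are not on the build of the counts.

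The members and lists were chosen with earlier results of these data known. The genes named are all members, Nanog, the 4 genes of a list with the lowest adjusted p, and the 5 genes most like Myc and Mycn. Bmyc, Mycs, Postn, Lama1 and Col4a1 are outside this rule. Some genes that the rule names are not reported here, but they stay in the counts. Marker lists of pluripotent, endoderm, fibroblast and Zscan4-positive cells are given as counts and sums.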

Additional observations from a re-analysis of the deposited data

How the results depend on the processing

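Over 13 other settings Mycl and Myc kept their direction; Mycl passed in all 13 and Myc in 12, missing with DESeq2 on all libraries (log2 fold change 0.30, adjusted p = 0.061). Mxd3, Mxi1, Mycn and Mnt also kept their sign, while Max, Mxd1, Mxd4 and Mga changed sign in 2, 3, 4 and 5 settings without passing in any. DESeq2 called 1 member, and the replicate block 4. Over all genes DESeq2 called 551 higher and 388 lower, and limma-voom with quantile normalization 1120 higher and 968 lower. DESeq2 called 0 rises among MYC targets, 0 in the MGA complex, 1 rise and 0 falls among MGA and MAX targets, 0 rises among corepressors and 1 among turnover genes. Without the shallow library DESeq2 called 2 rises among MGA and MAX targets and 1 among corepressors. Limma-voom called 4 falls among MYC targets, 3 rises and 0 falls among MGA and MAX targets, 2 falls among coactivators and 1 rise among corepressors. The block, or pairing by replicate number, gave 2 rises and 7 falls among MYC targets, 2 rises in the MGA complex, 4 among coactivators, 5 among corepressors and 2 falls among pluripotent markers, and moved no other list's count by over 1.5 times. Among pluripotent markers DESeq2 called 1 rise, and limma-voom and the fit with no filter on low counts 2 falls each; 5 Zscan4-state markers were called, of 5 tested, at a mean count of at least 50. With each library left out in turn, MYC targets gave 0 to 1 rises and 2 to 6 falls, the MGA complex 1 to 2 rises, MGA and MAX targets 2 to 6 rises and 0 to 1 falls, coactivators 1 to 4 rises and 1 to 2 falls, and corepressors 1 to 4 rises and 0 to 1 falls. The cause of these shifts was not tested. These list counts are small and follow single libraries. Depth limits Mxd1 and Mxd4 most, with 2 and 0 reads in 4OHT replicate 2.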

Other observations

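Long transcripts stood high in replicate 1 of both groups, as Mga did. This was looked at after the values of Mga were seen. Among tested genes with a mean level of at least 64 CPM and a coding transcript over 8 kilobases, 172 of 271 (63.5%) had their highest vehicle value in vehicle replicate 1 and their highest 4OHT value in 4OHT replicate 1. The share was 27.3% of 1164 genes of 4 to 8 kilobases, 14.4% of 1321 genes of 2 to 4 kilobases and 5.1% of 764 genes of up to 2 kilobases. The median log2 ratio of 4OHT replicate 1 to 4OHT replicate 3 was 0.13 in the longest class and -0.13 in the shortest. In vehicle the median log2 ratio of replicate 1 to the mean of replicates 2 and 3 was 0.08 and -0.07. In each group replicate 1 had the most reads. The part of this difference in the values of long genes such as Mga, Trrap, Bptf and Huwe1 was not tested.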
